A study of Homo sapiens with 4 samples.

Results

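The Notch pathway was followed through 10 of its transcripts in UMSCC74B cells, an established line labelled as head and neck squamous cell carcinoma. These were the receptors NOTCH1, NOTCH2 and NOTCH3, the ligands JAG1, JAG2 and DLL1, the coactivator MAML2, and the target genes HES1, HEY1 and NRARP. The genes were taken by name, entries with the same name were summed, and all 10 were found among 29655 gene names. The control group was 2 libraries from wild-type cells that received control shRNA, and the other group was 2 libraries labelled PRMT5 KD from cells that received shRNA against PRMT5, an enzyme that methylates arginines in proteins. Both groups were collected 72 h after delivery, and no drug or further allele is named for either. The labels speak of plasmid transfection, while the methods of the study speak of lentiviral particles. Neither says that the 2 libraries of a group came from separate cultures, so the p-values measure the spread between these libraries only. The libraries hold RNA from whole cultures, so less RNA per cell and fewer cells with a transcript cannot be told apart.

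Notch signalling passes from cell to cell. A ligand of the Jagged or Delta family on one cell binds a Notch receptor on its neighbour, ADAM proteases and then gamma-secretase cut the receptor, and the freed intracellular part enters the nucleus. There it joins the DNA-binding protein RBPJ and a Mastermind coactivator, and genes such as HES1, HEY1 and NRARP are switched on. In squamous epithelium the pathway is known for its part in moving cells from the basal layer into differentiation, and NOTCH1 is known as a gene often inactivated in head and neck squamous carcinoma.

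HES1 is the classical target whose promoter carries a pair of RBPJ sites that face each other on opposite strands, and its sequence is shown for that reason. RefSeq promoters on GRCh38.p14 were searched for 8 of the 10 genes. Those of DLL1 and HEY1 were left out of the search, so whether they hold a match is not known here. For each of the 8 genes the 250 bases before a single start site were searched on both strands, and any other start sites of the gene were not. The promoter used for NOTCH2 lies at chr1:120069613-120069912, inside the span of the gene given below. The bases before the outer end of that span were not searched. The search was for forms of the RBPJ site, GTGGGAA and GTGTGAA, and for TGGGAA, the core that GTGGGAA contains. Among these 8 genes HES1 alone held a match to any of them. It held GTGGGAA from 85 to 79 bases before the start and, 16 bases on, GTGTGAA on the other strand, from 62 to 56 bases before the start. Another TGGGAA lay between them, from 70 to 65. The same pair with the same spacing was then looked for in all promoters, a search chosen after the values were seen. It was held by 2 of 35116, those of HES1 and of HES4, a relative taken up below. The pair and its spacing came from HES1, so the match of HES1 was fixed in advance and only that of HES4 was not. Each window runs 5′ to 3′ along the strand of its gene, with both motifs in capitals, the facing GTGTGAA read as TTCACAC. That of HES1 lies on the plus strand at chr3:194136063-194136092 and that of HES4 on the minus strand at chr1:1000145-1000174.
HES1: GTGGGAAagaaagtttgggaagtTTCACAC
HES4: GTGGGAAagaatgcggagccgggTTCACAC
Of all 35116 promoters, 20.8% held TGGGAA in these 250 bases, 5.43% held GTGGGAA and 2.48% held GTGTGAA. No binding of RBPJ was measured here, and the absence of a match says only that these letters are not in the window.

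Counts per library ranged from 52185289 to 65964558, and ribosomal RNA took 15.3% and 14.2% of them in control against 26.2% and 18.0% under the PRMT5 KD label. Levels are given as CPM, counts scaled for library size with TMM factors, or as RPKM, which also divides by exon length. The 11884 protein-coding genes tested had at least 0.5 RPKM in both libraries of either group. Differences were tested with the quasi-likelihood test of edgeR with Benjamini-Hochberg adjustment over those genes (FDR). Called means that the FDR was below 0.05 with a log2 fold change of 0.5 or more in either direction. The PRMT5 transcript itself was not lower. Control replicates 1 and 2 had 94.3 and 84.3 CPM of it, and the PRMT5 KD replicates had 132 and 150 CPM. Its log2 fold change was 0.66 with a standard error of 0.12 (FDR = 0.00547). Without control replicate 2 it was 0.58 and was no longer called (FDR = 0.0677). Directions are therefore given by the labels throughout. The study reports that immunoblot showed the silencing by the shRNA, and protein was not analysed here.

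Markers of the labelled cell type were few. KRT5 had no count in 3 of the 4 libraries and 4 in the last, KRT14 had 0, 0, 11 and 22, and the epithelial cadherin CDH1 had 9, 4, 2 and 4 in the order control replicates 1 and 2, PRMT5 KD replicates 1 and 2. The 9 squamous markers summed to 58.2 and 52.5 CPM in control and to 37.1 and 48.7 CPM under the PRMT5 KD label, most of it DSG3, which was called lower. Other members went the other way, with PKP1 called higher (log2 fold change 0.79, FDR = 0.00551), KRT17 at 5 and 6 counts against 53 and 71, and SFN at 3 and 5 counts against 28 and 86. All 6 fibroblast markers were detected, with sums of 629 and 727 CPM in control and of 87.7 and 97.3 CPM under the PRMT5 KD label. All 6 were called lower, beside 24.4% of all genes tested. The 5 endothelial markers summed to 11.1 and 14.9 CPM against 2.17 and 1.32 CPM, and the 5 leukocyte markers to 95.8 and 114 CPM against 154 and 170 CPM, nearly all of it CD68. CD3E was at 0 in every library. These shifts run alongside every difference reported below, and their part in the Notch results was not tested.

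Of the 10 Notch genes, 8 passed the filter and were tested, and HEY1 and NRARP were too low. NOTCH2, NOTCH3 and JAG1 were called lower in the libraries labelled PRMT5 KD, DLL1 and HES1 were called higher, and NOTCH1, JAG2 and MAML2 were not called. The 5 calls out of 8 stand beside 45.6% of all genes tested, the 3 lower calls beside 24.4% and the 2 higher calls beside 21.2%. The groups did not overlap in CPM for 9 of the 10 genes, all but HEY1, and this was so for 80.5% of all genes tested. Without control replicate 1 neither DLL1 nor HES1 was called, and without control replicate 2 DLL1 was not. The log2 fold changes of the 8 genes had a median of -0.59, against -0.0075 over all genes tested. Of all calls, 46.5% were higher, and without TMM factors, on total counts only, 61.4% were.

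**Figure D1:**
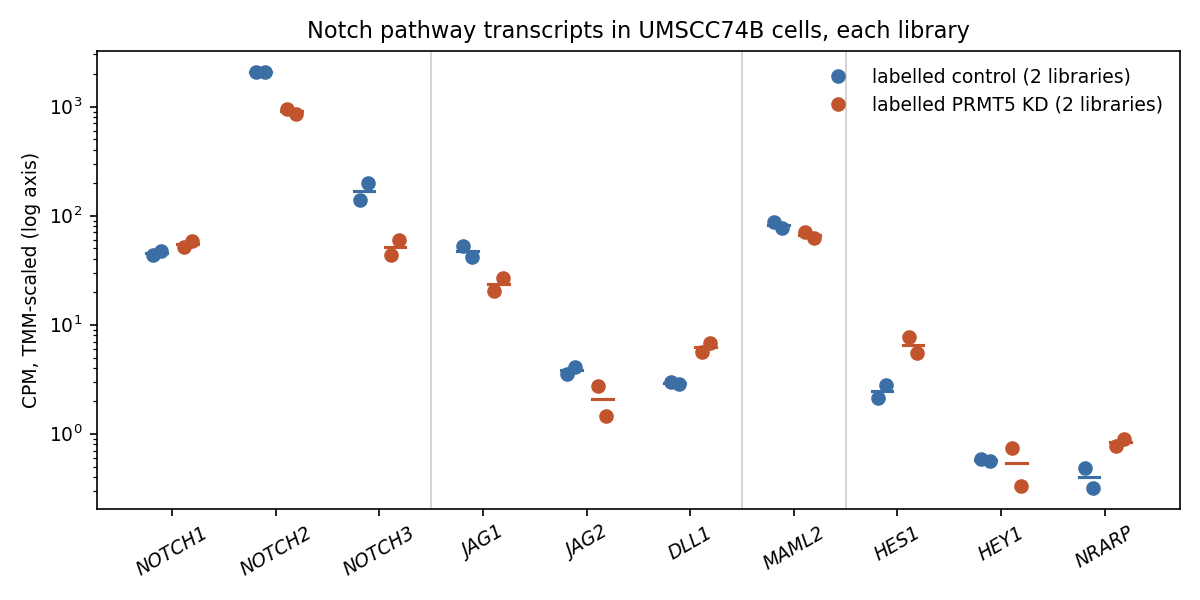
CPM after TMM scaling (log axis) of the 10 Notch genes, with 1 point per library, a bar at the mean of each group of 2, and vertical lines between receptors, ligands, coactivator and targets. NOTCH2 lies near 2090 CPM in both control libraries and at or below 956 CPM in both libraries labelled PRMT5 KD, while the points of HES1 and DLL1 lie higher under that label.

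NOTCH2 was by far the most abundant Notch receptor transcript. The gene spans 119911553 to 120100779 on chromosome 1 (minus strand, GRCh38, as for all positions). Control replicates had 2088 and 2092 CPM, against 956 and 846 CPM for the PRMT5 KD replicates. The control libraries were nearly identical, and both libraries of the other group lay far below them. The log2 fold change was -1.21 (standard error 0.15, 95% interval from -1.57 to -0.86, FDR = 0.00116), which is 2.32-fold lower. The deposited NOTCH2 counts carry decimals, as estimates do where reads are divided between genes, and NOTCH2NL, a near-identical partial copy, is a separate entry with 198 and 164 CPM in control and 106 and 88.1 CPM under the PRMT5 KD label. With the counts of both entries summed, a choice made after seeing the data, the log2 fold change was -1.19.

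NOTCH3, a receptor best known from smooth muscle and pericytes, showed the largest decrease of the 8 genes. It lies on the minus strand of chromosome 19 from 15159038 to 15200995. Its values were 139 and 198 CPM in control and 43.6 and 60.0 CPM under the PRMT5 KD label. The groups were apart, although the libraries within each group differed more than for NOTCH2. The log2 fold change was -1.70 (standard error 0.23, interval from -2.28 to -1.11, FDR = 0.00257), which is 3.24-fold lower. Leaving out 1 library at a time gave values from -1.94 to -1.42, each of them called.

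NOTCH1, on the minus strand of chromosome 9 from 136494433 to 136546048, did not follow the other receptors. Control replicates had 43.9 and 47.3 CPM, and PRMT5 KD replicates had 51.4 and 58.6 CPM. Both of the latter were higher, but the log2 fold change of 0.27 (standard error 0.12, interval from -0.02 to 0.56, FDR = 0.103) was not called. When fold changes were adjusted for the exon length and the GC content of each gene, it was 0.76 and was called (FDR = 0.00322).

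Ratios between the receptors within a library do not depend on how that library is scaled. Per length, the ratio of NOTCH2 to NOTCH1 was 35.6 and 33.1 in control, against 13.9 and 10.8 with the PRMT5 KD label. The ratio of NOTCH3 to NOTCH1 went from 4.20 and 5.56 to 1.13 and 1.37. Of the summed RPKM of NOTCH1, NOTCH2, NOTCH3 and NOTCH4, NOTCH1 made up 2.44% and 2.51% in control, against 6.20% and 7.56% with the PRMT5 KD label. NOTCH2 held between 81.7% and 87.0% in all 4 libraries. NOTCH4, which was below the filter, had between 123 and 238 counts per library. With 2 libraries against 2, the smallest two-sided p of an exact permutation test is 0.333, so the ratios are given as values.

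Among the ligands, JAG1 was called lower and DLL1 higher. JAG1, a Jagged ligand on the minus strand of chromosome 20 from 10637684 to 10673999, had 52.9 and 41.9 CPM in control. Under the PRMT5 KD label it had 20.4 and 26.7 CPM, both below the lower control. The log2 fold change was -1.01 (standard error 0.18, interval from -1.46 to -0.57, FDR = 0.00512), and it stayed called with each library left out, between -1.21 and -0.79.

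DLL1, a Delta ligand on the minus strand of chromosome 6 from 170282206 to 170306565, had 3.01 and 2.84 CPM in control. The libraries labelled PRMT5 KD had 5.59 and 6.78 CPM, both well above the controls, and the log2 fold change was 1.08 (standard error 0.22, interval from 0.56 to 1.60, FDR = 0.00687). Without control replicate 1 the log2 fold change was 1.12 and without control replicate 2 it was 1.04, and neither was called (FDR = 0.0569 and 0.0744). Exons of DLL1 overlap FAM120B on the other strand, and whether the counting used strand is not given in the sources used here. Exons of JAG1, MAML2, NRARP and PRMT5 also overlap annotated genes on the other strand. These are long noncoding RNAs with no entry among the counts and, for MAML2, also a microRNA at 0 in every library. FAM120B itself had 83.8 and 84.3 CPM in control, against 59.8 and 56.0 CPM.

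JAG2, the other Jagged ligand, was close to the limit of what was tested and passed the filter only through the control libraries. It lies on the minus strand of chromosome 14 from 105140982 to 105168824. Control replicates held 140 and 204 counts and PRMT5 KD replicates 130 and 69, or 3.54 and 4.08 CPM against 2.73 and 1.44 CPM. Both values under the PRMT5 KD label were lower, with a wide gap between its 2 libraries. The log2 fold change was -0.87 (standard error 0.34, interval from -1.69 to -0.05, FDR = 0.0707) and was not called. PRMT5 KD replicate 1 decided this, since without it the log2 fold change was -1.36 with a call (FDR = 0.00288), and without PRMT5 KD replicate 2 it was -0.47.

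The ratio of JAG1 to DLL1 within a library differed between the groups. JAG1 has 9298 bases of exon and DLL1 3819, and the ratio is not adjusted for the trend of fold changes with exon length described below. Per length, JAG1 stood at 7.23 and 6.07 times the level of DLL1 in control and at no more than 1.62 times under the PRMT5 KD label. Of the summed RPKM of JAG1, JAG2, DLL1, DLL3 and DLL4, JAG1 held 79.1% and 72.6% in control, against 45.8% and 52.0% with the PRMT5 KD label. The share of DLL1 was 10.9% and 11.97% in control against 30.6% and 32.1%.

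MAML2 encodes a Mastermind coactivator that holds the complex of RBPJ and the Notch intracellular part together. It lies on the minus strand of chromosome 11 from 95976598 to 96343195. It had 86.8 and 77.0 CPM in control and 70.4 and 61.8 CPM under the PRMT5 KD label. The latter were lower in both libraries, but the log2 fold change of -0.31 (standard error 0.12, interval from -0.61 to -0.01, FDR = 0.0762) was not called under any alternative run, and it was -0.13 without TMM factors.

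HES1 encodes a repressor of the basic helix-loop-helix family, and its promoter window with the facing RBPJ motifs is given above. It lies on the plus strand of chromosome 3 from 194136148 to 194138732. Control replicates held 85 and 139 counts and PRMT5 KD replicates 365 and 261, which is 2.15 and 2.78 CPM against 7.67 and 5.46 CPM. Both libraries of the latter group lay above both controls. The log2 fold change was 1.41 (standard error 0.27, interval from 0.76 to 2.05, FDR = 0.00566), or 2.65-fold higher, the largest increase among the 8 genes. It was 1.24 without control replicate 1 and then was not called (FDR = 0.0597).

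HEY1 and NRARP, the other targets, were detected at counts too low for the filter. NRARP, a small ankyrin-repeat protein that dampens Notch signalling, lies on the minus strand of chromosome 9 from 137299631 to 137302271. It had 19 counts (exact Poisson 95% interval from 11.4 to 29.7) and 16 (9.15 to 26.0) in control. Under the PRMT5 KD label it had 37 (26.1 to 51.0) and 43 (31.1 to 57.9). These intervals cover counting error only, since PCR copies are not independent molecules. On the CPM scale NRARP was 0.480 and 0.320 against 0.778 and 0.900, so the groups were apart, with a log2 ratio of the means of 1.07. When it was kept under a looser filter it had a log2 fold change of 1.14 (FDR = 0.0526 with edgeR's own filter on low counts) or 1.13 (FDR = 0.0642 with no filter), and it was not called.

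HEY1, a repressor related to HES1, lies on the minus strand of chromosome 8 from 79762371 to 79767857. It had 23 and 28 counts in the controls, against 35 and 16. On the CPM scale these were 0.581 and 0.560 against 0.736 and 0.335, so the control values lay between those of the other group. The log2 ratio of the means was -0.09, and it was 0.37 without PRMT5 KD replicate 2 and -0.77 without PRMT5 KD replicate 1. A change in HEY1 was not detectable at this depth.

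**Figure D2:**
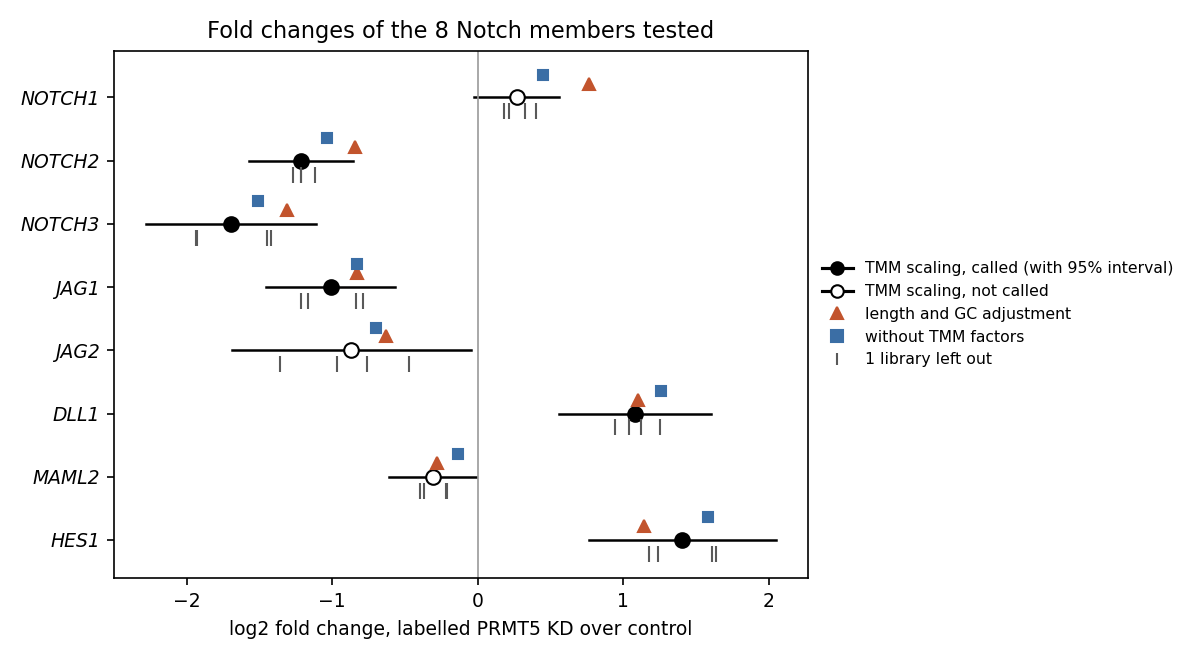
Log2 fold changes of the 8 genes tested, libraries labelled PRMT5 KD over control, with 95% intervals of the edgeR fit (circles, filled where called) and with values after the length and GC adjustment, without TMM factors, and with 1 library left out. NOTCH2, NOTCH3 and JAG1 lie below 0 and DLL1 and HES1 above 0 at every setting drawn, and NOTCH1 moves from 0.27 to 0.76 with the length and GC adjustment.

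Levels were ordered per length as RPKM, with 1 union exon length for each gene. In control the order was NOTCH2 (125 and 125 RPKM), NOTCH3 (14.7 and 21.0), MAML2 (12.2 and 10.8), JAG1 (5.69 and 4.51), NOTCH1 (3.50 and 3.78), HES1 (1.04 and 1.35), DLL1 (0.788 and 0.744), JAG2 (0.553 and 0.638), NRARP (0.182 and 0.121) and HEY1 (0.106 and 0.102). No neighbours in that order overlapped over their 2 libraries. The RPKM of NOTCH2 stood at the 97.6 percentile of the genes tested and that of JAG2 at the 0.816 percentile, so the members span nearly the whole range of expression.

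The order differed in the libraries labelled PRMT5 KD. NOTCH2 was again first (57.1 and 50.5 RPKM), and MAML2 came next (9.88 and 8.68 RPKM). NOTCH3 (4.63 and 6.38 RPKM) and NOTCH1 (4.10 and 4.67 RPKM) overlapped, as did HES1 (3.73 and 2.65 RPKM) and JAG1 (2.19 and 2.87 RPKM). DLL1 followed at 1.46 and 1.78 RPKM. JAG2 (0.427 and 0.226 RPKM) and NRARP (0.295 and 0.341 RPKM) overlapped too, and HEY1 was last at 0.134 and 0.0610 RPKM.

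Fold changes in these libraries fell with exon length over all genes, and the Notch receptors are long transcripts. With the genes split by exon length into 10 groups of nearly equal size, the median log2 fold change was 0.24 in the shortest group and -0.29 in the longest. NOTCH1 (12531 bases of exon) and NOTCH2 (16744 bases) belong to that longest group. NOTCH1 stood at the 81.4 percentile of its fold changes and NOTCH2 at the 12.4 percentile. NOTCH3 (9408 bases) and JAG1 (9298 bases) belong to group 9, with a median of -0.24, and stood at its 5.89 and 17.5 percentiles. HES1, with 2059 bases, belongs to the shortest group and stood at the 87.3 percentile there, and DLL1, with 3819 bases, stood at the 92.1 percentile of its group. With the length and GC adjustment, NOTCH2 was at -0.84, NOTCH3 at -1.31, JAG1 at -0.83, DLL1 at 1.11 and HES1 at 1.14, each still called.

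**Figure D3:**
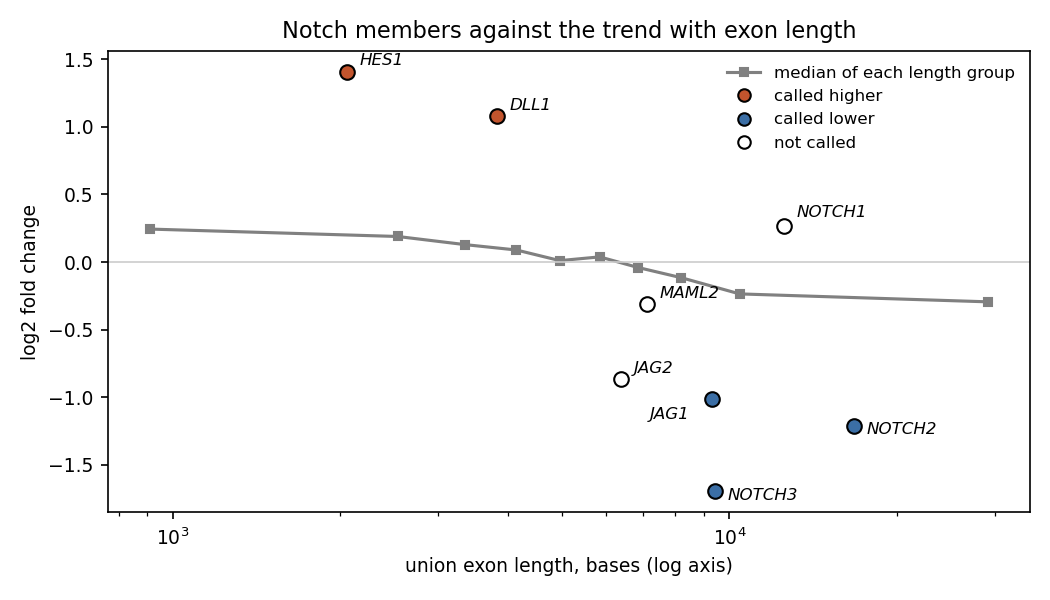
Log2 fold change of the 8 genes (circles, coloured by call) against union exon length in bases (log axis), with the median of each of 10 length groups of the 11884 genes tested (squares, placed at the middle of the length range of the group). The medians run from 0.24 to -0.29, NOTCH1 lies above the line, and NOTCH2, NOTCH3 and JAG1 lie below it.

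Another 65 genes of the pathway were grouped by role, from general knowledge, and 51 of them were tested. Of these, 12 were called lower and 6 higher, and the median of their log2 fold changes was -0.16. Over all genes tested, 24.4% were called lower and 21.2% higher. The lower calls are thus close to their background, and the higher calls are fewer than theirs. In all, 18 of the 51 were called, beside 45.6% of all genes tested. The lower calls depended on the scaling and the filter, with 7 without TMM factors, 8 with the length and GC adjustment or under each of 3 other filters, 7 without control replicate 1 and 5 without control replicate 2. The genes named from each group are the called ones with the largest rise and the largest fall, and any others named were chosen after their values were seen.

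Of 8 genes for receptor cleavage tested, 3 were called lower, none higher, and 5 were not called, beside 24.4% lower over all genes. APH1B, a gamma-secretase subunit, had a log2 fold change of -1.61 (FDR = 0.000751) and ADAM17, a membrane protease, one of -1.08 (FDR = 0.000629). ADAM10, the main protease of ligand-bound Notch, stood at -0.76 (FDR = 0.00439). ADAM10 and ADAM17 belong to the longest exon group, in which 37.0% of the genes were called lower. With the length and GC adjustment ADAM10 was at -0.47 and without control replicate 2 at -0.64, and was called in neither.

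Genes of receptor glycosylation were called in both directions. The Fringe enzymes add a sugar that alters which ligands a receptor prefers. LFNG rose, with a log2 fold change of 0.91 (FDR = 0.0105), and RFNG fell, with one of -0.65 (FDR = 0.00586). Without control replicate 1 LFNG was at 0.76 and was not called, and RFNG was at -0.47 without TMM factors and at -0.48 with the length and GC adjustment, neither called. In all, 5 glycosylation genes were tested, of which 2 were called lower and 1 higher, beside 24.4% lower and 21.2% higher over all genes.

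In the nucleus, the Mastermind gene MAML1 was called higher and MAML3 lower, while RBPJ was not called. RBPJ had a log2 fold change of -0.16 (FDR = 0.392). Without TMM factors it was 0.012, so it had no settled direction. MAML1 rose from a mean of 67.2 to 114 CPM, a log2 fold change of 0.76 (FDR = 0.00411), although without control replicate 2 it just missed the call (FDR = 0.0504). MAML3 fell from 17.1 to 7.10 CPM, a log2 fold change of -1.27 (FDR = 0.00119). Per length, MAML1 stood at 0.927 and 1.04 times the level of MAML2 in control, against 1.74 and 2.43 times with the PRMT5 KD label. Of the 8 activators tested, MAML1 and MAML3 were the only calls, beside 45.6% of all genes tested called in either direction. Of the 10 corepressors tested, 2 were called lower and 1 higher, beside 24.4% lower and 21.2% higher over all genes. TLE3, a Groucho corepressor, was at 0.67 and CTBP1, a partner of many repressors, at -0.52. CTBP1 lay close to the threshold and lost its call under several alternatives, among them the length and GC adjustment (-0.14).

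The remaining groups held at most 3 calls each. Ligand ubiquitylation and uptake had 2 genes called lower of 6 tested, led by MIB1, a ubiquitin ligase for Notch ligands, at -0.70, beside the 24.4% over all genes. With the length and GC adjustment MIB1 was at -0.46 and MIB2, the other one, at -0.077, and neither was called. Receptor turnover and Deltex genes had 2 called lower and 1 higher of 10 tested, beside 24.4% lower and 21.2% higher over all genes. AAK1, a kinase of endocytosis, was at -1.28 and DTX3L, a Deltex-family ubiquitin ligase, at 1.00. DTX3L lost its call without control replicate 2 (0.66) and without either of the PRMT5 KD replicates. Of 2 other receptors and ligands tested, 1 was called higher and none lower, beside 21.2% higher and 24.4% lower over all genes. DNER, with 128 and 135 CPM in control against 224 and 135 CPM, was not called (FDR = 0.172). DLL3, an inhibitory ligand, rose from 15 and 39 counts to 83 and 79, a log2 fold change of 1.52 (FDR = 0.0186). It passed the filter only through the libraries in which it was high, and it was at 1.12 and not called without control replicate 1.

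HES4, whose promoter window is shown beside that of HES1, had a larger fold change than any of the 8 Notch genes tested. Control replicates held 230 and 182 counts and PRMT5 KD replicates 1005 and 1087. The log2 fold change was 2.22 with a standard error of 0.24 (FDR = 0.000837). Only HES6 was tested beside it among the other 7 genes of the HES and HEY family on the list, with 55 and 59 counts against 70 and 72 and no call (FDR = 0.548). HEYL was below the filter with 69 and 56 counts against 30 and 37. Also below it, but higher under the PRMT5 KD label, were HES7 (14 and 25 counts against 37 and 27) and HEY2 (8 and 7 against 21 and 12). The same held for HES2 (2 and 1 against 8 and 6) and HES5 (0 and 0 against 1 and 1). HES3 was at 0 in every library.

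**Figure D4:**
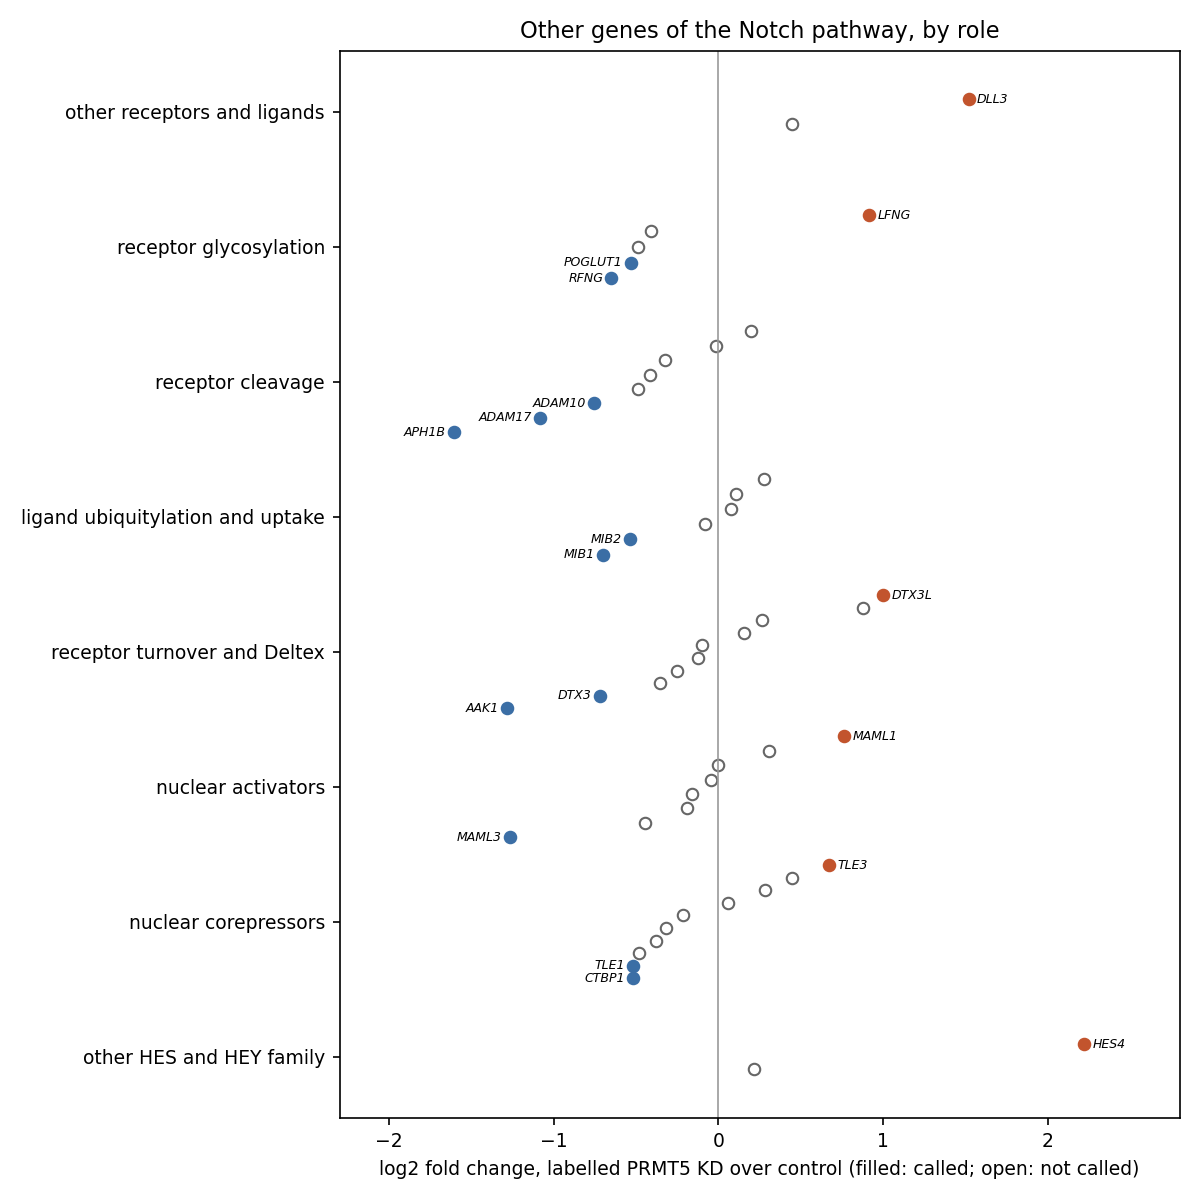
Log2 fold changes, libraries labelled PRMT5 KD over control, of the 51 other pathway genes tested, in rows by role, with called genes filled and named. The 3 called genes of receptor cleavage lie between -1.61 and -0.76, and HES4 lies farthest to the right at 2.22.

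Genes of squamous differentiation, the program Notch is known to promote in this epithelium, were mostly too low to test. Of 15 genes, 13 were below the filter, and KRT1, IVL, SPRR1A, SPRR1B, SPRR3, CALML5 and CRCT1 were at 0 in every library. KRT10 was not called, and KLF4, a transcription factor of many tissues as well as of the differentiating epidermis, rose from 296 and 322 counts to 2166 and 3330, a log2 fold change of 3.05 (FDR = 0.000469). Among 8 genes of the basal layer 4 were tested and all 4 were called lower, beside 24.4% of all genes tested. Of the 4, ITGB4 and TP63 passed the filter only through the control libraries, where they were high. The largest difference was that of ITGB4, an integrin of hemidesmosomes, at -3.10 (FDR = 0.000626), and 2 of the 4 were called without control replicate 1 or without control replicate 2. The filter left out members that were higher under the PRMT5 KD label. With no filter or with edgeR's own filter 2 genes of the list were called higher, and COL17A1, a hemidesmosome collagen, had 36 and 36 counts against 138 and 358. KRT14 had 0 and 0 against 11 and 22, KRT15 1 and 2 against 4 and 4, and KRT5 0 and 0 against 0 and 4.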

How the data were processed

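The authors deposited 1 table of estimated counts per library, which are reads per gene symbol, not normalized, with decimals in some values. The submitters' processing notes name FastQC, Trim Galore, STAR, Salmon and DESeq2 and the build GRCh38. The methods of the study describe STAR alignment and FeatureCounts on Gencode protein-coding genes instead, and which program made these estimates is not given in the sources used here. Reads of near-identical copies may have been divided between genes.

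Each table held 29744 entries, of which 28 had names turned into dates and were left out. Counts were summed by name and rounded, and names were matched to GENCODE 44 by symbol (21672), RefSeq gene number (1116) or a single RefSeq synonym (1501). Protein-coding genes passed with an RPKM of at least 0.5 on protein-coding totals in both libraries of either group, after the filter and thresholds of the study's methods. The fit used edgeR 4.0.16 in R 4.3.3 with TMM factors, robust dispersion and no covariates. DESeq2 1.42.0, which the study's methods name, other scalings and filters, a replicate term, splines with 4 degrees of freedom on exon length and GC content, and leaving out each library were alternatives. With a library left out, the lone library of its group is taken to vary like the others. The procedure was tested on simulated data. The Notch genes and the lists were chosen with earlier results of these data known, and no test was made over a list. The named genes are the 10 members, PRMT5 and, per list, the called genes with the largest rise and fall, and other genes were named after their values were seen. A few genes of the wider pathway are not reported here.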

Additional observations from a re-analysis of the deposited data

How the results depend on the processing

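NOTCH2, NOTCH3, JAG1, DLL1 and HES1 kept their direction under every alternative run, and the first 3 of them their calls. With the length and GC adjustment NOTCH1 was called at 0.76, and at 0.76 too when the replicate block was added to it. With 1 library left out, the log2 fold change ran from -1.36 to -0.47 for JAG2, from 0.94 to 1.25 for DLL1, from 1.18 to 1.64 for HES1 and from 0.57 to 0.78 for PRMT5. Members called higher then numbered 0 to 2. Genes of the wider pathway called lower, 12, numbered 7 without TMM factors and 5 to 13 with a library left out. Squamous differentiation genes called higher went from 1 to 2 without a filter, and those called lower from 0 to 1 with the length and GC adjustment, and to 0 to 1 over the libraries left out. RBPJ, not called, was above 0 without TMM factors (0.012) and with the length and GC adjustment (0.11, and 0.097 with the replicate block), and it ran from -0.33 to 0.027 with a library left out. The cause was not tested for any of these.

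Over all genes, 2521 were called higher and 2895 lower, with ranges of 1349 to 2764 and 1760 to 2949 over the libraries left out, and 1032 and 1529 at a log2 fold change threshold of 1. Leaving out the TMM factors made 61.4% of the calls higher, against 46.5%, and moved the median of all genes to 0.17. The replicate numbers are not said to pair the libraries, and same-numbered libraries deviated with a correlation of -0.101 across genes. A replicate block gave 2405 higher and 2787 lower calls and changed no call of a member. The crossed pairing, added after seeing the data, gave 2545 and 2937 and brought JAG2 to a call at -0.92. Depth limits NRARP and HEY1 most, with at most 43 counts in a library.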
